A study of Mus musculus with 8 samples.

Results

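The 7 genes described here encode the glyoxalase enzymes (Glo1, Hagh), the enzymes of glutathione synthesis (Gclc, Gclm, Gss) and the reductases of the cytosolic thiol systems (Gsr, Txnrd1). They were taken as the named genes whose probe carried exactly 1 gene symbol in the platform annotation, and all 7 had such a probe, 1 each, among 13840 genes with a probe of 1 symbol and 33012 probes in all. Glo1 and Hagh lie on chromosome 17, Gclc on 9, Gclm on 3, Gss on 2, Gsr on 8 and Txnrd1 on 10. Each member's mean level passed the filter on dim probes (the 40th percentile) in both tissues. The study compared hypothalamus and liver of male C57BL/6J mice (B6) and male B6.CAST-17 mice, a homozygous congenic strain with chromosome 17 material from CAST mice on the B6 background. Mice ate chow, or were offered 2 diets at once for 24 h, 1 built on carbohydrate and 1 on fat (78% of that macronutrient and 22% protein in each), called 2-choice here. Each of the 8 combinations of tissue, strain and diet was 1 array of RNA pooled from 6 mice, so no combination was repeated. The mice were the most divergent in nutrient intake of 20 to 25 per strain in a 10-day self-selection test, followed by 6 weeks back on chow, so the pools do not stand for unselected mice. Neither their age nor where on chromosome 17 the donor segment begins and ends was known here.

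Methylglyoxal, a reactive by-product of glycolysis, binds to glutathione without help from an enzyme. Glo1 (glyoxalase 1) turns that adduct into S-lactoylglutathione, and Hagh (glyoxalase 2) hydrolyses the product to D-lactate and gives the glutathione back. Glutathione itself is built from glutamate, cysteine and glycine: the catalytic subunit Gclc and the modifier subunit Gclm form the rate-limiting glutamate-cysteine ligase, and Gss (glutathione synthetase) adds the glycine. Gsr (glutathione reductase) and Txnrd1 (thioredoxin reductase 1) use NADPH to restore oxidised glutathione and thioredoxin. The liver is known as a main site of glutathione synthesis and export, and Gclc, Gclm, Gsr and Txnrd1 are textbook targets of NRF2, which binds antioxidant response elements.

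Promoter sequences were available for 5 of the 7 members (RefSeq, build GRCm38.p6), as 8 windows of the 250 bases before an annotated start. The core of the antioxidant response element, written TGACNNNGC, and the CCAAT box were searched for on both strands. The core was present in a window of 2 members, Gclm and Txnrd1, and in 10.2% of 32851 windows of all genes. CCAAT was present in windows of 4 members and in 33.8% of all windows. The windows of Gclm and Txnrd1 are shown because they hold the core, and those of Glo1 and Hagh because these genes lie on chromosome 17, the chromosome that differs between the strains. The reference is the C57BL/6J sequence, so the CAST alleles are not shown. All 4 run 5′ to 3′ along the gene and end at the base before the start. Capitals mark the 9 letters of a core match or the 5 letters of a CCAAT match on either strand, and the 2 motifs share no base in these windows.
Glo1 (chr17:30612660-30612909, minus strand): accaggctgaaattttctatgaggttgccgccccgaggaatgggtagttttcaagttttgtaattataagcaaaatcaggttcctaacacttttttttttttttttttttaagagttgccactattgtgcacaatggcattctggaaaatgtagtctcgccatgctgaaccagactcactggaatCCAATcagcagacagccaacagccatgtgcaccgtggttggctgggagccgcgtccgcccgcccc
Hagh (chr17:24850240-24850489, plus strand): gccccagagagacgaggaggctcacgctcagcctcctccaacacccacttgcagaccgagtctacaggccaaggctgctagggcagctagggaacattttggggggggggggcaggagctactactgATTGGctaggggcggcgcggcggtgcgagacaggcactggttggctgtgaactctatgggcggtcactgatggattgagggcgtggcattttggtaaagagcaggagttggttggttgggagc
Gclm (chr3:122245307-122245556, plus strand): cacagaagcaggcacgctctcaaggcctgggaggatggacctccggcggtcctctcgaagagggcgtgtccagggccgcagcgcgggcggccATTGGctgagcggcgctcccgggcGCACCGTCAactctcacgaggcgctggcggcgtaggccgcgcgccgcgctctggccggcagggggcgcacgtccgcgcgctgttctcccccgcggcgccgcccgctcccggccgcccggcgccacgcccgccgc
Txnrd1 (chr10:82858956-82859205, plus strand): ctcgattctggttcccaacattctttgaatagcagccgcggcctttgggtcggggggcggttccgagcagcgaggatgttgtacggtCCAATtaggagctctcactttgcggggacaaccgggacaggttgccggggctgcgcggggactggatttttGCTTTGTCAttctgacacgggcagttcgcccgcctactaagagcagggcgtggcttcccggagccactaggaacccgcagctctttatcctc

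Values below are log2 probe intensities, brought to common quantiles within each tissue unless stated, and differences are log2 differences with the standard error (SE) of the limma fit. Some arrays stood apart. Median deposited intensity was 559.6 on both hypothalamus chow arrays and 1338 on both hypothalamus 2-choice arrays, against 700 to 702 on the liver arrays. A diet difference in hypothalamus thus also crosses arrays that the authors had scaled apart. The liver diets were scaled apart as well, though by less. Their medians were 700 on chow and 701.8 on 2-choice, with first quartiles at log2 8.65 and 8.56. In the hypothalamus chow pair, Decr2 and Cyp4f14, chromosome 17 genes with large strain differences, differed by 1.38 and 2.69, while the other 3 pairs gave -3.26 to -2.32 and -2.96 to -1.53. The description of the congenic chow sample also names C57BL/6J, so strain values of that pair are given as labelled. The strain differences of Glo1, Hagh and Gsr are also given without it. Hepatocyte markers averaged 19.94 to 20.42 in liver and 8.81 to 10.32 in hypothalamus, and hypothalamic neuron markers 9.12 to 9.74 and 14.32 to 14.50, as the tissue labels say.

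All 7 members were higher in liver than in hypothalamus. For this comparison values were normalized over all 8 arrays. Gss was 11.54 (B6) and 12.24 (congenic) in hypothalamus on chow and 11.91 and 11.61 on 2-choice, against 14.69, 14.97, 14.06 and 14.06 in liver in the same order. No hypothalamus value of Gss reached the lowest liver value, and the mean difference was 6.15-fold (log2 2.62 ± 0.24 SE, 4 matched pairs; limma, adjusted p = 6.87e-06). Of the other glutathione enzymes, Gclc averaged 16.49 ± 0.14 (SD, n = 4 pools) in liver and 14.66 ± 0.26 in hypothalamus, a 3.54-fold difference (log2 1.83 ± 0.18; limma, adjusted p = 1.18e-05). Its partner Gclm averaged 18.66 ± 0.16 and 17.08 ± 0.09, a 3-fold difference (log2 1.58 ± 0.15; limma, adjusted p = 1.02e-05). On this scaling the glyoxalases differed less. Hagh differed by 2.67-fold (log2 1.42 ± 0.18, limma, adjusted p = 7.31e-05) and Glo1 by 2.48-fold (log2 1.31 ± 0.29, limma, adjusted p = 0.00314). The place of Hagh depended on the scaling. On median-centred arrays it was at 2.87 against 2.80 for Gclc, and on deposited values at 2.56 against 2.50. Glo1 was lowest of the members on both, at 2.25 and 1.95. No test was run of one gene's difference against another's. Without the congenic chow pair the Glo1 difference was 0.88 (limma, adjusted p = 0.00536).

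The reductases varied most among the hypothalamus pools. Gsr ranged over 9.98 to 12.32 among the hypothalamus pools and 13.20 to 13.86 among the livers (log2 difference 2.27 ± 0.40; limma, adjusted p = 8e-04). Txnrd1 was 8.96 to 11.62 and 12.64 to 13.08 (log2 2.47 ± 0.52; limma, adjusted p = 0.00239), with 8.96 and 9.34 in the hypothalamus chow pools, near the filter level of 9.24 on this scale. In all 7 genes every liver pool lay above every hypothalamus pool. The gap was narrowest in Glo1, between 15.36 in the congenic 2-choice hypothalamus and 15.57 in the B6 2-choice liver. The share of all probes without overlap between the tissues was not counted. All 7 members were higher in liver in each matched pair, as were 29.6% of all probes tested. The 7 calls among 7 members stand against 9729 of 19807 probes called (49.1%), and 24.1% of all probes tested were called as higher in liver. The members' median difference was 1.83 and that of all probes tested 0.04. Arrays of whole tissue cannot tell more cells of a type from more RNA per cell.

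**Figure D1:**
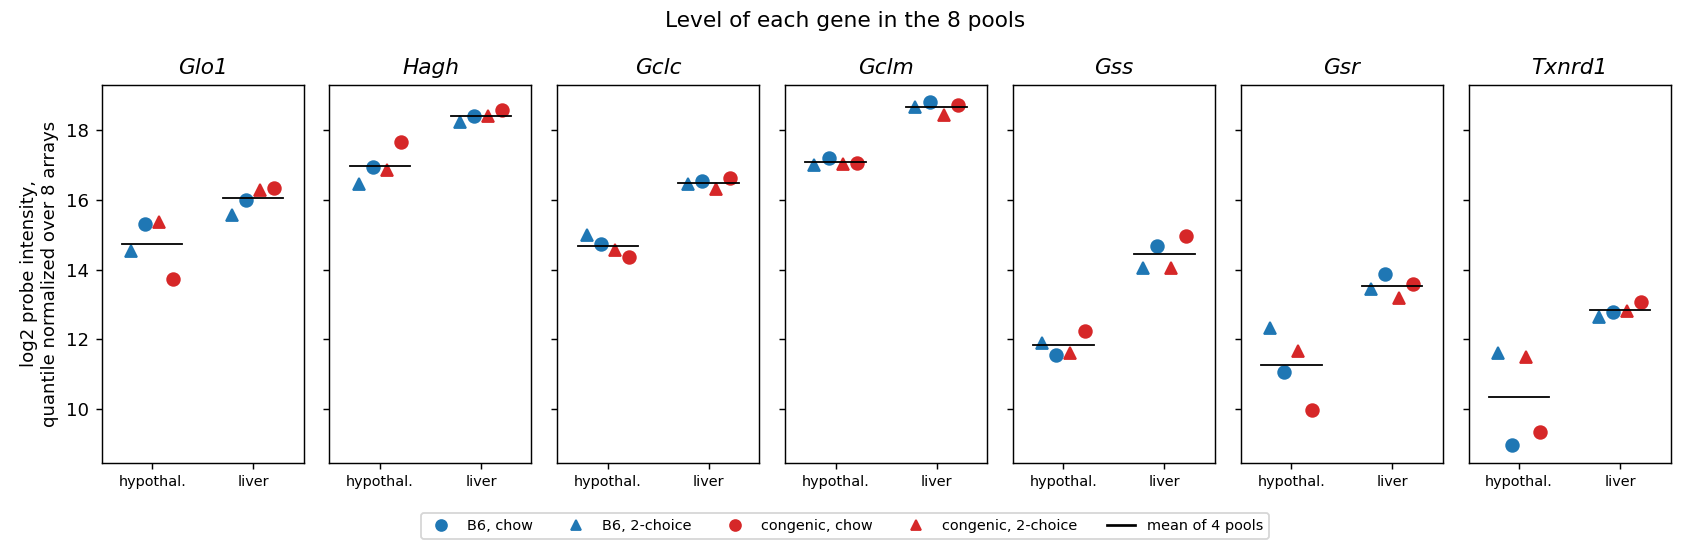
Log2 intensity of the 7 genes in the 8 pools, quantile normalized over the 8 arrays, with colours for strain, shapes for diet and a line at the mean of 4 pools. Within each gene the liver pools sit above the hypothalamus pools, and Gsr and Txnrd1 spread most in hypothalamus; heights of different genes come from different probes and are not comparable.

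In each of 6 lists of genes that work beside the members, more genes were called higher in liver than lower. Of all 19807 probes tested, 4773 (24.1%) were called higher and 4956 lower. Of 7 tested NADPH supply genes, 6 were called higher and 1 lower (median 2.89), and of 12 genes of the NRF2 list 8 and 2 (median 2.53). Among 13 tested genes of glutathione precursors, breakdown and transport, 6 were called higher and 3 lower. Glutathione peroxidases and glutaredoxins gave 3 higher and 1 lower of 9. The thioredoxin and peroxiredoxin list gave 6 and 2 of 11, and aldehyde and carbonyl clearance 7 and 1 of 13. The medians of these 4 lists were 0.21, 0.33, 0.65 and 1.23, against 0.04 for all probes tested.

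The question of the strain comparison was which genes differ between congenic and B6 mice as candidates for nutrient intake on chromosome 17, where 2 of the members lie. Glo1 in liver was 16.37 in B6 and 16.75 in congenic mice on chow, and 15.91 and 16.69 on 2-choice. Both congenic livers lay above both B6 livers, by 0.38 on chow and 0.77 on 2-choice. The mean difference of 1.49-fold (log2 0.58 ± 0.40 SE) did not pass (limma, adjusted p = 0.864), with an SE that also holds the spread of the hypothalamus pairs. With an error taken from the livers only, the difference was 0.58 ± 0.14 and again did not pass (limma, adjusted p = 0.0615), in a fit that called 1.27% of 19807 probes. Hagh was 19.05 in B6 and 19.24 in congenic liver on chow, and 18.84 and 19.05 on 2-choice, so its strain ranges met (log2 0.20 ± 0.16; limma, adjusted p = 0.887).

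The liver strain differences of the glutathione and reductase genes were small. Gclc was 17.02 and 16.91 in the B6 livers on chow and 2-choice, and 17.11 and 16.73 in the congenic livers, with opposite signs in the pairs. Gclm (-0.18 ± 0.16) and Gsr (-0.29 ± 0.28) were lower in both congenic livers, and Txnrd1 was higher in both (0.27 ± 0.38). Gss was 0.32 higher in the congenic liver on chow and 0.01 lower on 2-choice. In all, 3 members were higher and 2 lower in both congenic livers, while 28.1% and 28.7% of all probes tested were. limma called none of the 7 members and 0 of 19807 probes (0%), with 1318 at an unadjusted p under 0.05.

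In hypothalamus Glo1 was 14.99 in B6 and 13.62 in the array labelled congenic on chow, and 14.33 and 15.04 on 2-choice. The 2-choice pair thus differed by 0.71, near the 0.77 of the 2-choice livers, and the chow pair by -1.37 as labelled, the same reversal as in Decr2 and Cyp4f14. In no other member did this pair oppose 3 pairs of 1 sign. With either 2-choice hypothalamus array left out, so that the doubtful chow pair stood alone, the Glo1 difference of -1.37 passed (limma, adjusted p = 0.00524 and 0.0054). These fits set 1 array against 1 with an error from the livers only, and they called 1339 and 1376 of 19807 probes. With either chow array left out the difference was 0.71 (adjusted p = 1). Hagh was 16.46 and 17.08 on chow and 16.01 and 16.36 on 2-choice, higher in the pool labelled congenic in each pair (0.49 ± 0.16, limma, adjusted p = 0.823). Gsr was 11.23 and 10.16 on chow and 12.38 and 11.78 on 2-choice, lower in each (-0.84 ± 0.28; limma, adjusted p = 0.823). Gclc was also lower in both pairs (-0.33 ± 0.16). Without the doubtful chow pair, Hagh was at 0.35, Gsr at -0.6 and Gclc at -0.35 in the 2-choice pair alone. So 1 member was higher and 2 were lower in both labelled congenic pools, with 24.4% and 25.1% of all probes tested, and limma called 0 of 19807 (0%; 983 at an unadjusted p under 0.05).

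Over both tissues, with the hypothalamus chow pair as labelled, Hagh was higher in the congenic pool of 4 of 4 pairs (log2 0.34 ± 0.12). Gsr was lower in 4 of 4 (-0.56 ± 0.21). Of all probes tested, 6.81% were higher and 6.99% lower in 4 of 4 pairs. Both genes had their largest difference in that doubtful pair (0.62 and -1.07), and the sign there would turn if its labels were exchanged. Neither passed (limma, adjusted p = 0.863 for both), and no probe of 15466 did (0%; 660 at an unadjusted p under 0.05). Glo1 was at 0.12 ± 0.32 over the 4 pairs (limma, adjusted p = 0.958). Without the hypothalamus chow pair Glo1 was 0.62 ± 0.12, higher in 3 of 3 pairs, with an unadjusted p of 0.000775 and an adjusted p of 0.343 (limma). That fit called 9 of 15466 probes (0.0582%), none of them a member, and gave Hagh 0.25 ± 0.13 (adjusted p = 0.702) and Gsr -0.39 ± 0.15 (adjusted p = 0.687). Between the tissues the strain difference of Glo1 differed by 0.91 ± 0.57 (limma, adjusted p = 0.801), and none of 15466 probes passed that test (0%; 836 at an unadjusted p under 0.05). Without the doubtful hypothalamus chow pair it was -0.13 (adjusted p = 1). Without the hypothalamus 2-choice pair, where hypothalamus is the doubtful pair alone, it was 1.95 (adjusted p = 6e-04), in a fit that called 1108 of 15466 probes with an error from the livers only.

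**Figure D2:**
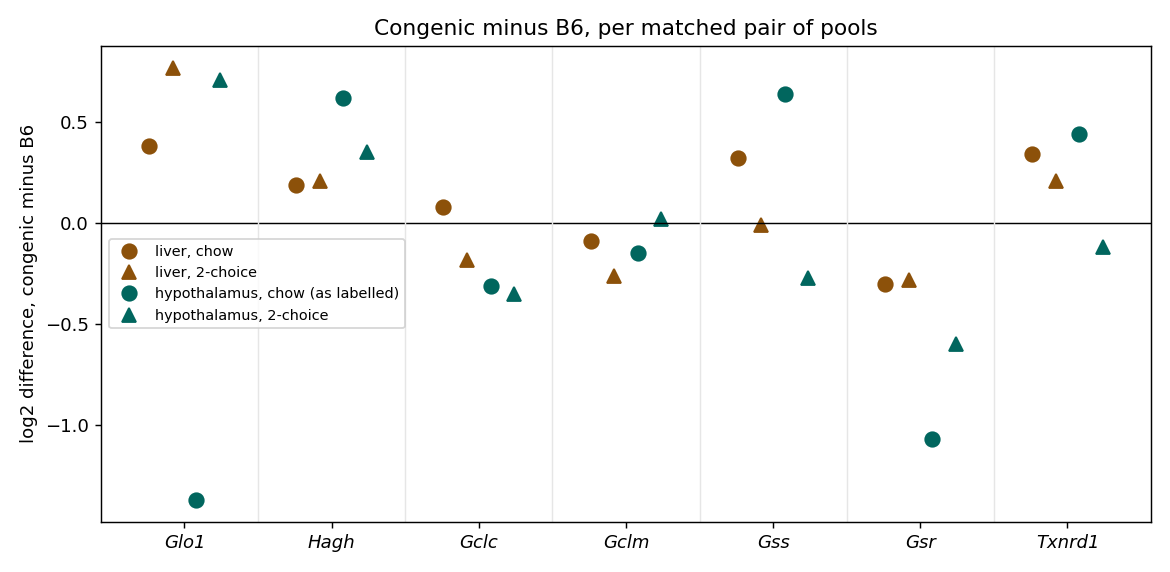
Log2 difference, congenic minus B6, of the 7 genes in each matched pair of pools, with colours for tissue and shapes for diet. Glo1 lies between 0.38 and 0.77 in 3 pairs and at -1.37 in the hypothalamus chow pair as labelled. With that pair as labelled, Hagh lies above 0 and Gsr below 0 in all 4.

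The genes next to the 2 chromosome 17 members were read in the same liver pairs, taking the 3 nearest on each side with a probe tested in liver. Around Glo1 the order was Rnf8, Cmtr1, Zfand3, Glo1, Dnah8, Glp1r and Abcg1. Of the 6 neighbours, Cmtr1, an mRNA cap methyltransferase gene, was higher in both congenic livers (0.05 and 0.32) and the other 5 were lower in both. Zfand3, which stands next to Glo1, was lower by -0.62 and -0.65, and Abcg1, a sterol exporter, by -0.82 and -0.99. No neighbour passed in the fit of all arrays (limma, adjusted p of 0.614 for Zfand3 and of 0.741 to 0.977 for the others). With the spread of the liver arrays alone Zfand3 passed (limma, adjusted p = 0.0376). Glo1 went the other way from both genes nearest to it, Zfand3 and the dynein heavy chain gene Dnah8 (-0.47 and -0.35).

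Around Hagh the order was Ndufb10, Rpl3l, Hs3st6, Hagh, Fahd1, Igfals and Nubp2. Ndufb10, a subunit of respiratory complex I (0.45 and 0.25), Rpl3l (0.44 and 0.39), the oxaloacetate decarboxylase gene Fahd1 (0.17 and 0.39) and Nubp2 (0.51 and 0.38) were higher in both congenic livers, as Hagh was (0.19 and 0.21). Igfals, which holds IGF in a serum complex, was lower by -1.13 and -1.17, and it passed with the spread of the liver arrays alone (limma, adjusted p = 0.000234) but not in the fit of all arrays (adjusted p = 0.562). The heparan sulfate sulfotransferase gene Hs3st6 was split, at -2.04 and 0.22. Between Hagh and Glo1 lay 74 other tested genes.

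**Figure D3:**
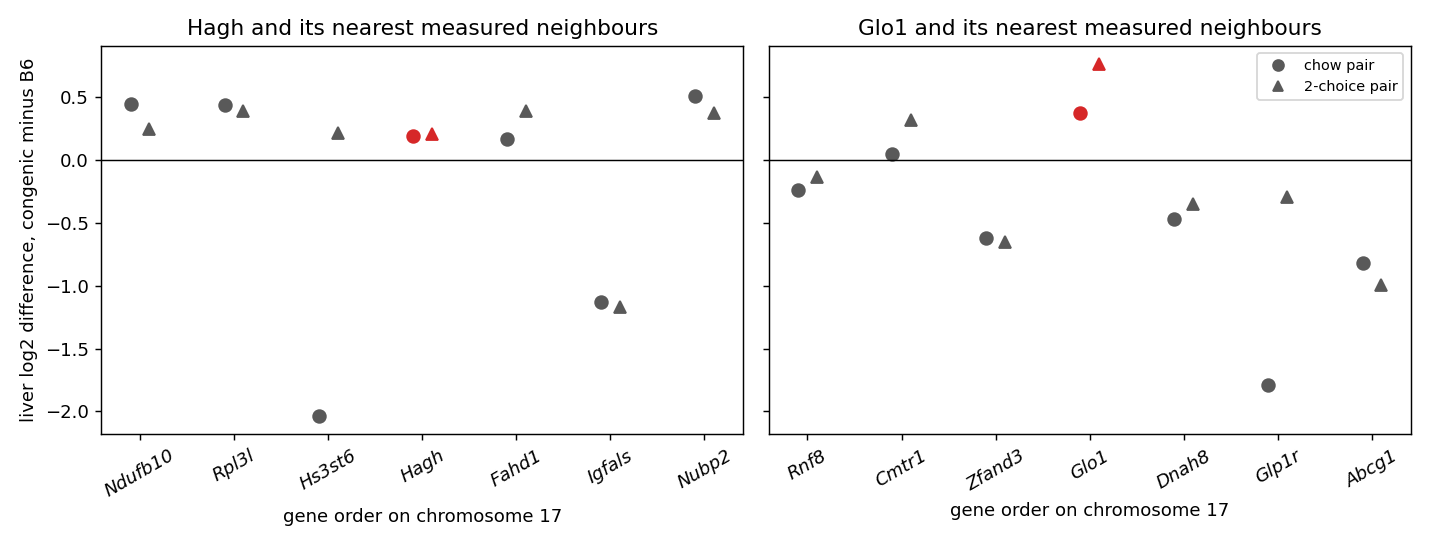
Liver log2 difference, congenic minus B6, of Hagh and Glo1 (red) and their 3 nearest measured genes on each side (grey), in gene order, with circles for the chow and triangles for the 2-choice pair. Glo1 is at 0.38 and 0.77 between Zfand3 and Dnah8, which are below 0 in both pairs, and Hagh sits among genes on either side of 0.

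Of the partner genes, Cbs, the chromosome 17 gene for the entry enzyme of transsulfuration, which supplies cysteine, was 18.35 and 17.95 in the B6 livers and 19.33 and 18.78 in the congenic livers on chow and 2-choice. Both congenic values lay above both B6 values (log2 0.90 ± 0.16; limma, adjusted p = 0.41, and 0.00755 with the spread of the liver arrays alone). Txn1, the thioredoxin that Txnrd1 reduces, was 10.66 and 11.07 in the B6 livers and 8.60 and 8.79 in the congenic livers, the last 2 under the filter level of 9.04, so the size of its difference (-2.16 ± 0.55; limma, adjusted p = 0.562) rests on values near the floor. Other genes at least 1.5-fold apart with 1 sign in both pairs were Adh5, which clears the glutathione adduct of formaldehyde (0.71 ± 0.45), the thioredoxin inhibitor Txnip (0.67 ± 0.41), the mitochondrial carrier gene Slc25a40 (0.64 ± 0.61), the glutathione-degrading Chac1 (-0.67 ± 0.33) and the plasma glutathione peroxidase Gpx3 (-0.86 ± 0.41). Both congenic livers were also under the filter level in Gpx3 (8.93 and 8.97), and the B6 2-choice liver in Slc25a40 (8.66). None of these 5 passed in the fit of all arrays (limma, adjusted p of 0.76 to 0.921). No gene of the 6 pathway lists was called for strain in liver, and the lists' medians lay between -0.16 and 0.15 against 0.01 for all probes.

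The next comparison asked how a day of diet choice moved expression against chow. In liver all 7 members were lower on 2-choice in both strains, with Gss furthest apart. Gss was 14.91 in B6 and 15.23 in congenic liver on chow, and 14.21 and 14.20 on 2-choice. Neither 2-choice liver reached a chow liver, and the mean difference was 1.83-fold (log2 -0.87 ± 0.28 SE), by -0.70 in B6 and -1.03 in congenic mice. It did not pass in the fit of all arrays (limma, adjusted p = 0.428). With the spread of the 4 liver arrays alone it did (-0.87 ± 0.15; limma, adjusted p = 0.00425), in a fit that called 3.23% of 19807 probes and no other member. Of all probes tested, 7.59% had a difference as low as that of Gss.

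Gsr was 13.98 and 13.68 on chow and 13.53 and 13.25 on 2-choice in B6 and congenic livers, again without overlap (-0.44 ± 0.28; limma, adjusted p = 0.697). Gclc was 17.02 and 17.11 on chow and 16.91 and 16.73 on 2-choice (-0.25 ± 0.16), and Gclm 19.51 and 19.42 against 19.35 and 19.09 (-0.25 ± 0.16), so the diets did not overlap in either subunit of the ligase. For Glo1 (-0.26 ± 0.40), Txnrd1 (-0.23 ± 0.38) and Hagh (-0.20 ± 0.16) the diet ranges overlapped or met. The smallest of these differences was the -0.07 of Glo1 in congenic mice. The share of all probes whose diet ranges did not overlap in liver was not counted. The 7 of 7 lower in both strains stand against 30.9% of all probes tested (29.3% were higher in both), and against 36.6% of the 5486 probes at least as bright in liver as the dimmest member. The 7 genes were read on the same 4 arrays, so their directions are not independent of each other. Both strains' diet differences also cross arrays that the authors had scaled apart, and diet cannot be told apart from that scaling. The members' median difference was -0.25 and that of all probes -0.01. limma called 0 of 19807 probes (0%), with 1731 at an unadjusted p under 0.05.

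Cell type markers moved beside this result. Of 8 measured macrophage markers 6 were lower on 2-choice in both strains, and their mean level went from 13.86 to 13.08 in B6 and from 14.62 to 12.72 in congenic liver. Among them, Clec4f was 15.06 and 15.36 on chow and 13.87 and 13.88 on 2-choice, and Cd5l 16.23 and 16.07 against 14.84 and 14.51. The markers not lower in both strains were Adgre1 and Marco. Adgre1 went from 9.44 to 9.58 in B6 and from 11.89 to 9.24 in congenic liver, and Marco from 9.17 to 9.76 and from 12.42 to 8.99. Hepatocyte markers went from 20.03 to 19.94 and from 20.42 to 20.31, with 1 of 6 lower in both strains. The mean of the 2 measured erythroid markers went from 16.38 to 16.13 and from 16.33 to 15.54. No marker was listed at 0, and the part of these cells in the members' values was not tested.

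Genes around the members showed the same side of 0 in part. In the list of NRF2 and its targets, 8 of 12 tested genes were lower in both livers and 1 was higher (median -0.45 against -0.01 for all probes), and none passed in the fit of all arrays. Ephx1, the microsomal epoxide hydrolase, was 17.17 and 17.22 on chow and 16.37 and 16.13 on 2-choice (-0.95 ± 0.18; limma, adjusted p = 0.221, and 0.00106 with the spread of the liver arrays alone). Ugdh, which makes UDP-glucuronic acid, was at -0.89 ± 0.24 (limma, adjusted p = 0.375, and 0.00188 with that spread). In glutathione precursors, breakdown and transport 8 of 12 were lower and 1 higher (median -0.18), with Cth, the transsulfuration enzyme that releases cysteine, at 17.14 and 17.57 on chow and 16.21 and 16.77 on 2-choice (-0.87 ± 0.25; limma, adjusted p = 0.391, and 0.00195 with that spread). Slc25a40 was at -1.61 ± 0.61 (limma, adjusted p = 0.517), with its B6 2-choice value of 8.66 under the filter level.

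The other 4 lists were more even. Aldehyde and carbonyl clearance had 5 of 13 lower and 3 higher, with Ethe1, the mitochondrial persulfide dioxygenase of the glyoxalase 2 fold family, at 15.52 in both chow livers and at 14.05 and 14.49 on 2-choice (-1.25 ± 0.20; limma, adjusted p = 0.175, and 2e-04 with the spread of the liver arrays alone). Fn3krp was at -0.60 ± 0.60 with 2-choice values of 8.92 and 8.98 under the filter level of 9.04, and Esd, the S-formylglutathione hydrolase, at 1.63 ± 0.67 with chow values of 8.97 and 7.99 under it. Peroxidases and glutaredoxins had 4 of 9 lower and 2 higher, the 2 being Gpx5 (0.69 ± 0.61, with a congenic chow value of 8.73 under the filter level) and Gpx6 (0.70 ± 0.52). The thioredoxin list had 5 of 11 lower and 2 higher, and NADPH supply 4 of 7 lower and 2 higher, among the latter Me1, the cytosolic malic enzyme (0.59 ± 0.26). None of these passed in the fit of all arrays (limma, lowest adjusted p 0.175). The medians of the 4 lists were -0.10, -0.21, -0.11 and -0.14.

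**Figure D4:**
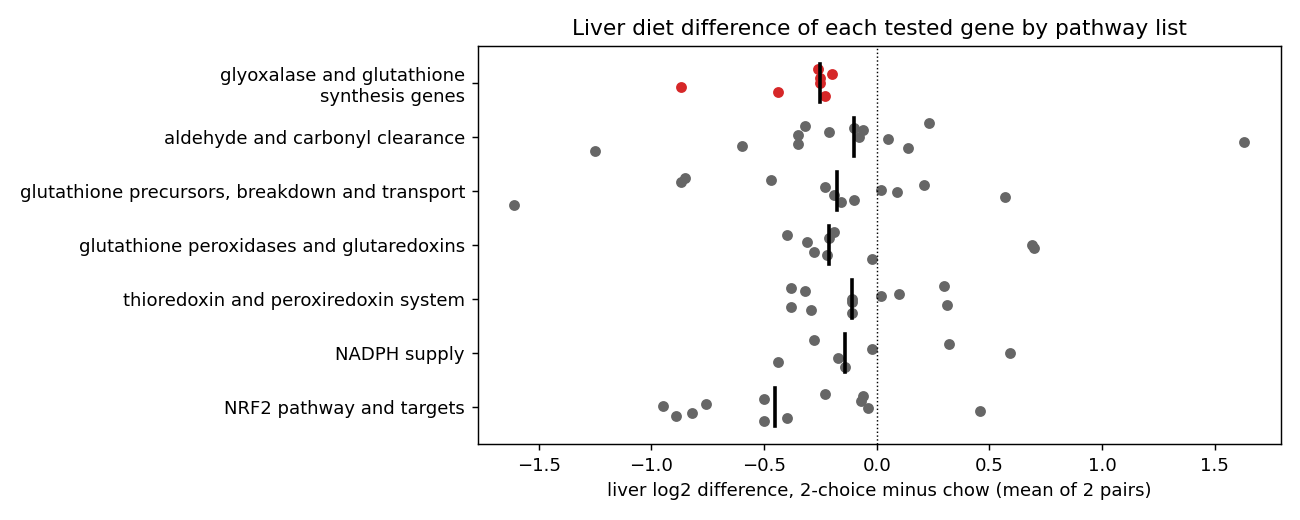
Liver log2 difference, 2-choice minus chow (mean of the B6 and congenic pairs), of each tested gene in the 7 members (red) and 6 pathway lists (grey), with a bar at each median. All 7 members lie below 0 with a median of -0.25. The NRF2 list has the lowest median at -0.45, and each of the 6 lists reaches to both sides of 0.

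In hypothalamus the members split. Txnrd1 was 9.03 in B6 and 9.47 in congenic mice on chow, and 11.75 and 11.63 on 2-choice. Both 2-choice pools lay over 2 log2 units above both chow pools, and Txnrd1 rose 5.42-fold (log2 2.44 ± 0.38 SE; limma, adjusted p = 0.0417), the 1 member among 97 of 19807 probes called (0.49%). Its chow mean of 9.25 lay under the filter level of 9.26, so it was tested only through its 2-choice values, and the size rests on chow values near the floor. Gsr was 11.23 and 10.16 on chow and 12.38 and 11.78 on 2-choice (1.39 ± 0.28) and did not pass (limma, adjusted p = 0.0688), although it did without the B6 chow, congenic chow or B6 2-choice array (adjusted p of 0.0211, 0.0397 and 0.0288), and not without the congenic 2-choice array (0.0543). These fits took their error from the livers only and called 713 to 1714 of 19807 probes. A difference at least as high as that of Txnrd1 was seen in 0.712% of probes tested and at least as high as that of Gsr in 7.82%. At an unadjusted p under 0.05 the fit held 4143 probes (20.9%), far more than in liver.

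The Txnrd1 call did not hold in every fit: its adjusted p was 0.103 with the spread of the 4 hypothalamus arrays alone, 0.177 without a trend in the variance and 0.0619 with a stricter filter. Its sign did not depend on the scaling, and relative to the median of all probes it was higher by 2.37, or by 1.91 on deposited values or median-centred arrays. Gsr was higher than that median by 1.32 and 1.38 on the same scalings. Hagh was 16.46 and 17.08 on chow and 16.01 and 16.36 on 2-choice (-0.58 ± 0.16; limma, adjusted p = 0.113), lower than the median by -0.65 and -0.62, although its own sign turned on those other scalings. Diet and the authors' scaling of the arrays cannot be told apart here.

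The other members lay nearer to 0 in hypothalamus. Gclc was higher on 2-choice in both strains (0.20 ± 0.16) and Gclm lower in both (-0.10 ± 0.16), while Gss was split (0.33 in B6 and -0.57 in congenic mice). Glo1 was -0.65 in B6 and 1.42 in congenic mice as labelled, a split that contains the doubtful chow pair; the mean of 0.38 ± 0.39 uses both chow arrays whichever strain each held. Without the B6 chow or the B6 2-choice array the Glo1 difference was 1.42 and passed (limma, adjusted p = 0.00516 and 0.00586). Without the congenic chow or the congenic 2-choice array it was -0.65 and did not (adjusted p = 0.0742 and 0.0792). In all 3 members were higher and 2 lower in both pairs, against 33.6% and 29.7% of all probes. Oligodendrocyte markers were higher on 2-choice in 4 of 4 (means of 13.23 and 13.52 on chow and 14.32 and 14.11 on 2-choice), and astrocyte markers in 1 of 4. Endothelial markers were higher in 4 of 5 (8.99 and 9.05 against 10.17 and 10.02), from chow means under the filter level of 9.26. Hypothalamic neuron markers were higher in both strains in 3 of 7 and lower in 4, and macrophage markers were higher in 0 of 8 and lower in 4. The part of these cells in the members' values was not tested. Of the partner lists, Cth was the 1 gene called (2.48 ± 0.25; limma, adjusted p = 0.00806), from chow values of 8.02 and 8.45 that also lay under the filter level.

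**Figure D5:**
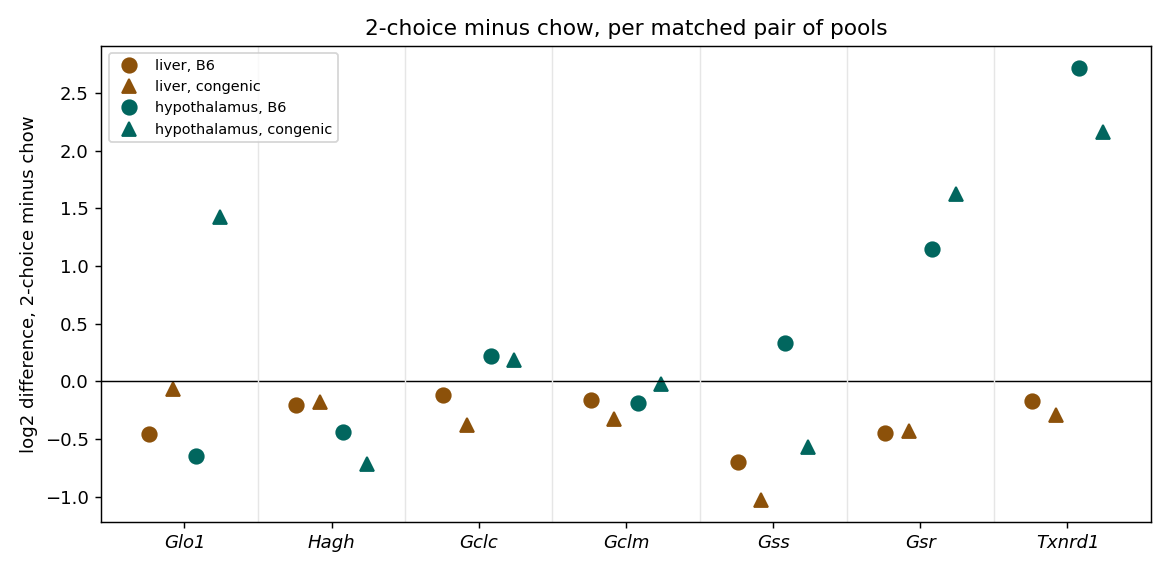
Log2 difference, 2-choice minus chow, of the 7 genes in each matched pair of pools, with colours for tissue and shapes for strain. The liver pairs lie between -1.03 and -0.07 in all 7 genes, and in hypothalamus Txnrd1 (2.72 and 2.16) and Gsr (1.15 and 1.62) lie highest among the genes with 1 sign in both strains.

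The test of diet by tissue called 10 of 15466 probes (0.0647%), and no member was among them. Txnrd1 had the largest difference of the members, liver minus hypothalamus, at -2.67 ± 0.55 (limma, adjusted p = 0.154), and Gsr was at -1.83 ± 0.40 (limma, adjusted p = 0.159). The Txnrd1 value rests on hypothalamus chow values near the filter level. Without the hypothalamus B6 or congenic pair both genes passed, Txnrd1 at -2.39 and -2.95 (adjusted p = 0.0179 and 0.00376) and Gsr at -2.06 and -1.60 (adjusted p = 0.00883 and 0.0126), in fits that called 766 and 1625 of 15466 probes with an error from the livers only. Without the liver B6 or congenic pair neither passed (adjusted p = 0.436 and 0.59 for Txnrd1, 0.485 and 0.564 for Gsr). Within a tissue, whether the strains answered the diet unequally has no error term, since each combination was 1 pool; an effect common to both tissues was not tested. The strain difference on 2-choice minus that on chow was 0.39 for Glo1 in liver and -0.33 to 0.03 for the other 6. In hypothalamus it was 2.08 for Glo1, with the chow pair as labelled, and -0.91 to 0.47 for the others.

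The pattern of each member over the 8 arrays, after its tissue means were taken out, was set beside that of 8187 other genes tested in both tissues. These correlations over 8 arrays are descriptions, and all points share the arrays and their scaling. Glo1 was most like Tcf19, another gene of chromosome 17 (Pearson r = 0.985), followed by the basement membrane gene Nid2 (0.972) and Mpst, a sulfurtransferase of cysteine breakdown (0.965). Gss was most like Urod, an enzyme of haem synthesis (0.986), Slc12a7 (0.983) and the microsomal glutathione transferase gene Mgst3 (0.981). The closest genes to Gsr were Pitpnm2 (0.975), Tank (0.967) and the lactonase gene Pon2 (0.967), and those to Txnrd1, whose pattern is mostly its hypothalamus diet difference, were Prkd3 (0.998), Nde1 (0.993) and Rb1cc1 (0.992).

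Hagh was most like 3110001I22Rik (0.996), Ctc1 (0.976) and Gins4 (0.961). For the ligase subunits the nearest were Ugp2 (0.955), Rnf126 (0.947) and Naip2 (0.934) for Gclc, and Tmem198 (0.979), Amph (0.956) and Adcy6 (0.956) for Gclm. Among the members themselves, Gclc and Gsr were the most alike over the 8 centred arrays (r = 0.82) and Hagh and Gsr the most opposed (r = -0.86). The 2 glyoxalases were at -0.33 over the 8 centred arrays, a value in which strain labels play no part, and at 0.91 over the 4 livers alone. The 2 subunits of the ligase were at 0.47 over the 8 arrays and at 0.90 over the livers. Values this high over 4 arrays were not particular to these partners. Over the livers the pairs of members ran from -0.25 (Glo1 and Gclm) to 0.97 (Hagh and Txnrd1).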

How the data were processed

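The authors deposited linear probe intensity for 33012 probes of 8 single-channel arrays of digoxigenin-labelled cRNA, per the labels' protocols; no label records how background was corrected or arrays were normalized, and the precision is limited by 1 array per combination. The sorted intensities of the 2 strains agreed within each tissue and diet, so the authors had brought each such pair to 1 distribution. Groups came from sample titles; some free-text descriptions differ from them. The platform annotation gave 1 symbol for 14411 probes and several for 247, and 18354 are unnamed here.

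Values were taken to log2, quantile normalized within tissue (over all 8 arrays for liver against hypothalamus), and filtered at the 40th percentile of mean level. Effects were fitted across all probes with limma 3.58.1 in R 4.3.3 (eBayes with a trend) and Benjamini-Hochberg adjustment at 0.05. Strain and diet per tissue came from 1 fit of 8 arrays (2 residual degrees of freedom). Strain over both tissues and liver against hypothalamus came from 4 matched pairs as blocks (3 degrees of freedom). Fits with the spread of 1 tissue alone had 1 residual degree of freedom, so their p-values rest largely on the variance shared across probes. The labels name no repeat pools, so p-values reflect how these pools varied, not mice. The scripts were tested on simulated data.

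The members and pathway lists were chosen with earlier results of these data known. Named by rule were the members, list genes at least 1.5-fold apart with 1 sign in both liver pairs (up to 2 each way) or called, 3 neighbours on each side by gene order in RefSeq, and the 3 most alike genes per member; the single marker genes were picked after their values were seen. Alternatives were other scalings, filters and variance models, the spread of 1 tissue, and leaving out each array or pair.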

Additional observations from a re-analysis of the deposited data

Results flagged for a closer look

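In 3 members the diet difference went one way in both liver pairs and the other way in both hypothalamus pairs. The difference, liver minus hypothalamus, was -2.67 for Txnrd1, -1.83 for Gsr and -0.45 for Gclc on the log2 scale. The test of diet by tissue did not pass for any of the 3 (limma, adjusted p = 0.154, 0.159 and 0.357). Txnrd1 rests on hypothalamus chow values near the filter level (mean 9.25 against 9.26). Txnrd1 and Gsr passed with the hypothalamus B6 or congenic pair left out, in fits that called 766 and 1625 of 15466 probes, and did not with the liver B6 or congenic pair left out (adjusted p = 0.436 and 0.59 for Txnrd1, 0.485 and 0.564 for Gsr). On deposited values with no further scaling, and on median-centred arrays, all 3 passed, while the median of all probes moved to -2.08 and -0.83; relative to that median Txnrd1 was at -2.13 and Gsr at -1.83 on both scalings, and Gclc at -0.66.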

How the results depend on the processing

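All 7 members kept their direction and stayed past the threshold between liver and hypothalamus under every scaling, filter, variance model and left-out pair that was run. All 7 also kept their direction for diet in liver. Only the scalings could have turned a direction in these 2 comparisons. Filters and variance models leave the difference as it is, and leaving out an array or pair leaves pairs already of 1 sign. Each member had 1 probe, so averaging probes changed nothing. The number of probes called over the table moved more. Between tissues it was 5579 on deposited values, 43.7% of them higher in liver, and 58.2% were higher on median-centred arrays. With the spread of 1 tissue alone it was 252 for strain and 639 for diet in liver, 21 for strain and 753 for diet in hypothalamus. For strain in hypothalamus 1 probe was called on deposited values and on median-centred arrays. For diet in hypothalamus the median of all probes moved from 0.07 to 2.05 on deposited values and 0.79 on median-centred arrays, with 15430 and 7633 calls (99.7% and 93.9% higher, against 72.2%), 43 with the 60th percentile filter and 0 without a trend (limma, 3367 at an unadjusted p under 0.05). There Hagh turned to 1.43 and 0.17, Gclm to 1.91 and 0.65 and Gss to 2.12 and 0.87. For diet by tissue the calls were 10781, 3901, 2 and 0 in the same order (1969 unadjusted in the last), and Hagh turned to -1.75 and -0.50.

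Leaving out 1 array or pair gave 10 to 24 calls for strain in liver, 33 to 1376 for strain in hypothalamus, 0 to 9 for strain over both tissues, 7 to 1108 for strain by tissue, 9 to 28 for diet in liver, 713 to 1714 for diet in hypothalamus and 12 to 1625 for diet by tissue. Members whose sign turned were, for strain in liver, Gclc (-0.18 to 0.08) and Gss (-0.01 to 0.32), and for strain in hypothalamus Glo1 (-1.37 to 0.71), Gclm (-0.15 to 0.02), Gss (-0.27 to 0.64) and Txnrd1 (-0.12 to 0.44). Glo1 went from -0.09 to 0.62 for strain over both tissues, with the highest value when the hypothalamus chow pair was left out. For strain by tissue Glo1 went from -0.13 to 1.95, Gss from -0.48 to 0.42 and Txnrd1 from -0.17 to 0.39. For diet in hypothalamus Glo1 went from -0.65 to 1.42 and Gss from -0.57 to 0.33, and for diet by tissue Glo1 from -1.69 to 0.39. The cause of these shifts was not tested. Detection flags were not used here, so values near the filter level of 9.04 in liver and 9.26 in hypothalamus have no measured floor.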
